A study of Mus musculus with 4 samples.

Results

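The genes described here are 10 genes of the circadian clock, PER1, PER2, PER3, CRY1, CRY2, CLOCK, ARNTL, DBP, BHLHB2 and NFIL3. They were chosen by name: every non-control probe carrying one of these symbols was taken, which gave 18 of the 41000 probes and 10 of the 18760 gene symbols on the array. H460, an established human lung carcinoma line, was treated for 4 h with 250 µM farnesol (FOH), an isoprenoid alcohol, or with the vehicle dimethyl sulphoxide (DMSO), in duplicate experiments of a study on apoptosis and the endoplasmic reticulum stress response. Each replicate paired the RNA of treated cells with that of its own vehicle culture, labelled with Cy3 or Cy5 and hybridised together on 2 arrays with the dyes exchanged, so that 4 arrays hold 2 replicates. The arrays carry human gene names, as the line requires, although the organism field of the samples names the mouse. The labels do not say whether the duplicates were separate passages, and p-values measure only the spread between these 2 replicates, whose number limits the precision of every value.

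The circadian clock is a loop of transcription that cells of most tissues run on their own. The proteins CLOCK and ARNTL (also called BMAL1) bind DNA as a pair and switch on the PER and CRY genes, whose proteins return to the nucleus and repress that pair. BHLHB2 (also called DEC1 or BHLHE40) is a further repressor of the same target genes. DBP and NFIL3 (also called E4BP4) are leucine zipper factors that compete for the same promoter element, the D-box, where DBP activates and NFIL3 represses. PER1 and BHLHB2 are also known to respond directly to signals that reach the cell, outside the daily rhythm.

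Between 82.7% and 93.0% of the probe spots were flagged well above background in a channel, a lenient flag, since 3 of 4 leukocyte markers carried it in all channels as well. The epithelial markers KRT8, KRT18, KRT19 and TACSTD1 were flagged in all channels, with intensities from 203 to 23401, while markers of leukocytes, fibroblasts and endothelium lay between 58.2 and 568. Dye-swapped arrays of a replicate correlated at r = 0.943 and 0.942 across genes, and arrays of different replicates at 0.634 to 0.684. Genes are not independent, and these correlations are descriptions.

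Farnesol RNA held more NFIL3, PER1 and BHLHB2 signal than vehicle RNA in both replicates, and DBP signal was higher too, mainly in replicate 2. The other 6 clock genes lay close to the vehicle level or split between the replicates. NFIL3, the D-box repressor, was 6.64-fold higher (log2 ratio 2.73 ± 1.24, SD, n = 2), and PER1, of the repressor arm, was 3.54-fold higher (1.82 ± 0.72). BHLHB2 was 2.32-fold higher (1.22 ± 0.89) and DBP, the D-box activator, 1.54-fold higher (0.62 ± 0.55). None of the 10 genes passed limma's moderated test with Benjamini-Hochberg adjustment over all 28600 features, at a threshold of 0.05. None of these differences can therefore be called after adjustment for the number of features. Over all features the test passed 3 (0.0105%), and 2 of the 10 clock genes, PER1 and NFIL3, had an unadjusted p under 0.05, both higher, as did 14.5% of all features, 3.71% higher and 10.8% lower. By size, NFIL3 and PER1 exceeded 2-fold in each replicate with every array above 0, which held for 188 features in all (0.657%). No clock gene was at least 2-fold lower in both replicates (0.238% of features). RNA was measured in bulk, so a larger amount per cell and a larger share of responding cells cannot be told apart.

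**Figure D1:**
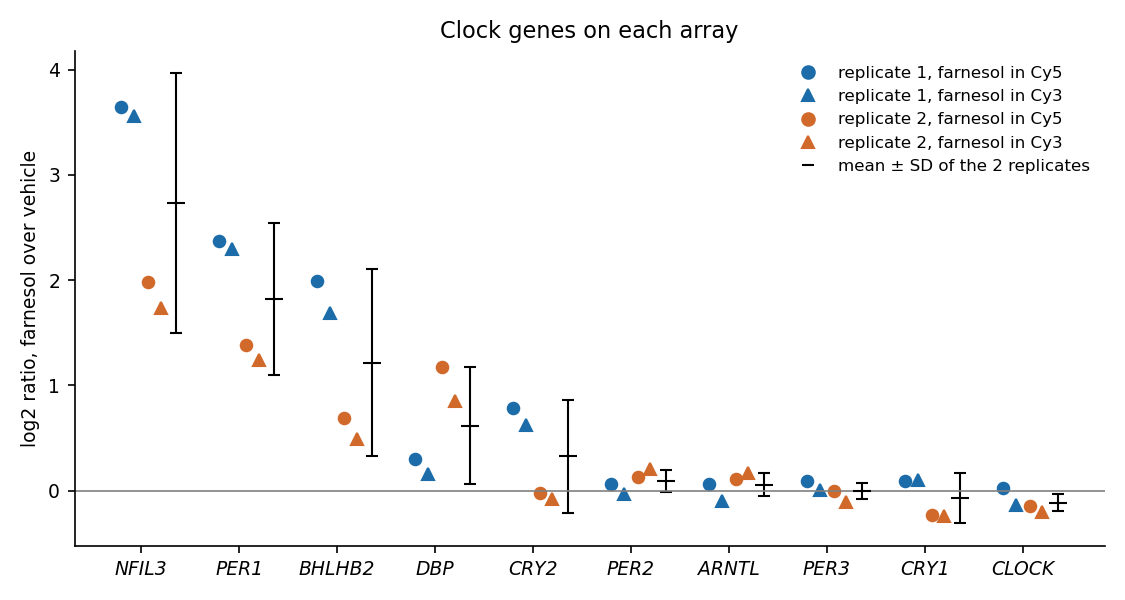
Log2 ratio of farnesol over vehicle (y axis) for the probe that stands for each of the 10 clock genes, ordered by mean. Circles and triangles are the 4 arrays, coloured by replicate, and the black dash with its bar is the mean ± SD of the 2 replicates. NFIL3, PER1, BHLHB2 and DBP lie above 0 on all 4 arrays, and the replicates of each stand further apart than the arrays of a replicate.

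Levels are given as normalized intensities of a probe, in arbitrary units, which include an offset of 50 added in background correction. Negative control spots had a median of 54.4 and a 95th percentile of 59.9 on this scale. A level cannot be set against that of another probe. The vehicle levels of the 18 clock gene probes ran from 72.1 to 947, and no clock gene spot was saturated. All 18 probes were above the 95th percentile of the negative controls in all 4 RNAs.

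Among the D-box factors, the NFIL3 probe (A_23_P32253) measured 276 in the vehicle and 3358 in the farnesol RNA of replicate 1, and 225 and 816 in replicate 2. Both farnesol RNAs thus lay above both vehicle RNAs, while the farnesol levels of the replicates differed far more than the vehicle levels. The log2 ratios on the arrays with farnesol in Cy5 and Cy3 were 3.65 and 3.56 in replicate 1 and 1.98 and 1.73 in replicate 2. The ratio was therefore 12.2-fold in replicate 1 and 3.62-fold in replicate 2, and the dye exchange moved it little. Limma gave an adjusted p of 0.241, with a 95% interval of the log2 ratio from 0.997 to 4.46. NFIL3 ranked 54th of 17874 named genes by mean log2 ratio.

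DBP was measured by a pair of probes that differed. The brighter one (A_23_P130761) measured 736 with vehicle and 861 with farnesol in replicate 1, and 947 and 1907 in replicate 2. The farnesol level of replicate 1 lay below the vehicle level of replicate 2, so the groups overlapped, although the ratio was above 0 on all 4 arrays. DBP was the only one of the 4 highest genes with the larger ratio in replicate 2, at 2.01-fold against 1.17-fold. Limma gave an adjusted p of 0.432, with a 95% interval from -0.18 to 1.41. The dimmer probe (A_23_P130753), annotated to another transcript record, gave log2 ratios of -0.079 and 0.11 in the replicates. It lay below 0 on both arrays of replicate 1, at -0.108 and -0.051. The mean of both DBP probes was 0.32.

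In the repressor arm, PER1 stood apart from PER2 and PER3 by its values. Its brighter probe (A_23_P89589) measured 197 with vehicle and 994 with farnesol in replicate 1, and 112 and 278 in replicate 2. Both farnesol RNAs lay above both vehicle RNAs. The log2 ratios were 2.37 and 2.30 on the arrays of replicate 1 and 1.38 and 1.25 on those of replicate 2, or 5.04-fold and 2.48-fold. Limma gave an adjusted p of 0.222, with a 95% interval from 0.80 to 2.85. PER1 ranked 97th among the named genes.

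The second PER1 probe (A_24_P93916), designed on another transcript record, gave 0.12 and 0.047 in the replicates. Its levels of 72.1 to 78.1 were the lowest of the 18 probes with vehicle and close to those of the negative controls, where the offset shrinks ratios. With no offset it gave 0.33 and 0.16, still far below the brighter probe, which then gave 2.66 and 1.95. With the mean of both probes PER1 had a log2 ratio of 0.95 (adjusted p = 0.214 by limma), against 1.82 for the brighter probe.

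**Figure D2:**
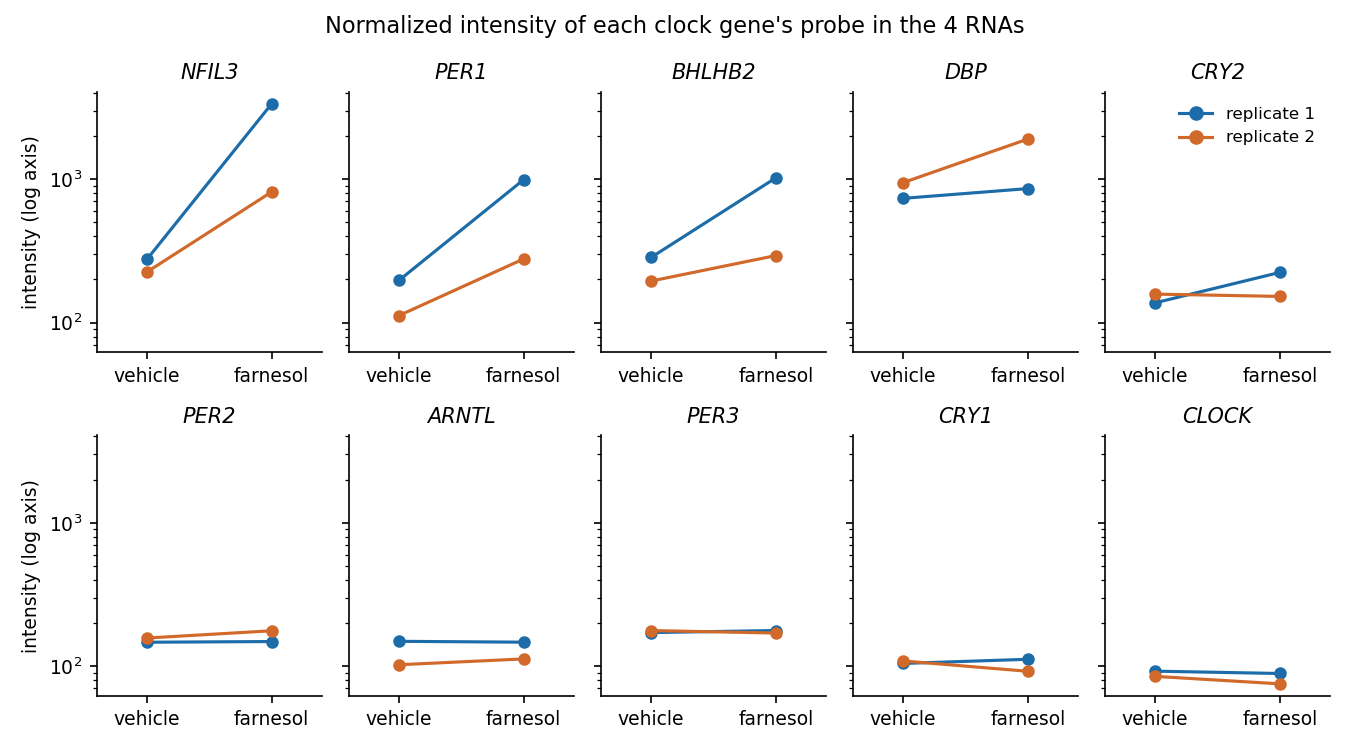
Normalized intensity (y axis, log scale, arbitrary units, offset of 50 included) of the probe that stands for each clock gene in the vehicle and farnesol RNA of replicate 1 (blue) and replicate 2 (orange), each the mean of the dye-swapped arrays. Lines join matched RNAs. The farnesol levels of NFIL3, PER1 and BHLHB2 lie above both vehicle levels of the gene, and those of DBP overlap them.

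PER2 and PER3, partners of PER1 in the repressor complex, stayed within 1.2-fold in the mean of the replicates on all 5 of their probes. The brightest PER2 probe (A_23_P411162) measured 147 with vehicle and 148 with farnesol in replicate 1, and 157 and 176 in replicate 2. Its log2 ratio was 0.092 ± 0.11, with a 95% interval from -0.14 to 0.32 (limma, adjusted p = 0.628). The other PER2 probe (A_23_P209320), annotated to transcript variant 1, had log2 ratios of 0.38 and 0.21 on the arrays of replicate 1 and -0.42 and -0.37 on those of replicate 2. Arrays of a replicate agreed there in direction, and the replicates opposed each other. The 3 PER3 probes had mean log2 ratios from -0.0049 to 0.052, and the brightest had a 95% interval from -0.21 to 0.20 (adjusted p = 0.979).

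The cryptochromes CRY1 and CRY2, which carry most of the repression of the CLOCK and ARNTL pair, differed between the replicates. Both CRY1 probes were higher with farnesol on both arrays of replicate 1 and lower on both arrays of replicate 2. The brighter one (A_23_P36665) measured 104 with vehicle and 112 with farnesol in replicate 1, and 109 and 92.0 in replicate 2. Its mean log2 ratio was -0.071 ± 0.24, with an interval from -0.45 to 0.30 (adjusted p = 0.821). With no offset this CRY1 probe had 0.17 and -0.52 in the replicates, a mean of -0.17, and with processed signals the mean was -0.22. The brightest CRY2 probe (A_23_P127394) measured 137 and 224 in replicate 1, but 158 and 152 in replicate 2. Its log2 ratios were 0.79 and 0.62 on the arrays of replicate 1 and -0.025 and -0.082 on those of replicate 2, with a mean of 0.33 ± 0.54 (interval -0.44 to 1.09, adjusted p = 0.609). The other CRY2 probes had means of 0.070 and 0.011, so the ratio of replicate 1 was seen by 1 of 3 probes.

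BHLHB2 had a single probe (A_24_P268676), which measured 285 with vehicle and 1022 with farnesol in replicate 1, and 195 and 293 in replicate 2. The farnesol level of replicate 2 lay just above the vehicle level of replicate 1, so the groups were barely apart. The log2 ratios were 1.99 and 1.69 on the arrays of replicate 1 and 0.69 and 0.49 on those of replicate 2, or 3.59-fold and 1.51-fold. Limma gave an adjusted p of 0.354, with a 95% interval from -0.032 to 2.47. In all, both farnesol RNAs lay above both vehicle RNAs for 3 of the 10 clock genes, against 13.1% of features, and below them for none, against 19.7%.

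The activators CLOCK and ARNTL each had 1 probe, and both lay within 1.2-fold of vehicle in each replicate at the offset used, which shrinks ratios of dim probes. CLOCK measured 92.2 with vehicle and 88.8 with farnesol in replicate 1, and 84.8 and 75.2 in replicate 2. It was well above background in farnesol on 3 of 4 arrays, and its log2 ratio of -0.11 ± 0.084 (interval -0.33 to 0.099, adjusted p = 0.534) was the lowest of the 10 genes. With no offset CLOCK had -0.11 and -0.51 in the replicates, a mean of -0.31, and with processed signals the mean was -0.38. ARNTL measured 149 and 147 in replicate 1, and 102 and 112 in replicate 2. Its log2 ratio was 0.058 ± 0.11 (interval -0.18 to 0.29, adjusted p = 0.762). CLOCK was thus lower in both replicates and ARNTL split between them, and both intervals include 0. With no offset ARNTL had -0.028 and 0.27.

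**Figure D3:**
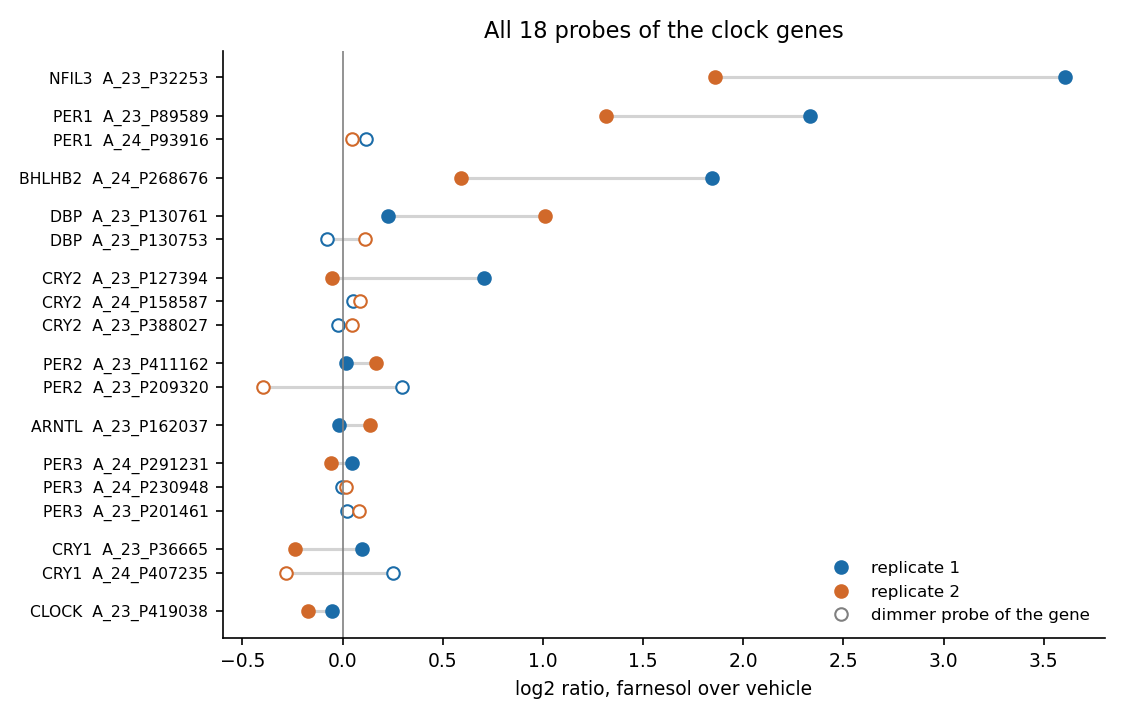
Log2 ratio of farnesol over vehicle (x axis) in replicate 1 (blue) and replicate 2 (orange) for each of the 18 probes, named on the y axis by gene and probe. Filled points are the probe that stands for its gene and open points are dimmer probes. The second probes of PER1 and DBP and the dimmer probes of CRY2 lie near 0, and the second PER2 probe and both CRY1 probes lie on opposite sides of 0 in the replicates.

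Across the 18 probes, the gap between the dye-swapped arrays of a replicate had a median of 0.088 and reached 0.32 in log2 ratio. The gap between replicates had a median of 0.17 and reached 1.75, and it was larger than both dye gaps of the probe for 12 of 18 probes. The spread of these genes thus lay mostly between the experiments and not between the arrays. The larger ratio in replicate 1 for NFIL3, PER1 and BHLHB2 was not particular to them, since 112 of the 150 named genes past the 2-fold size rule above (74.7%) also had it.

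Of the 10 genes, 5 were higher in both replicates, against 35.4% of all features, 1 was lower in both, against 30.1%, and 4 had opposite signs, against 34.5%. By the probe that stood for each gene, NFIL3, PER1, BHLHB2 and DBP were higher on every array, as were 20.9% of features. None of the 10 genes was lower on every array, as were 21.9% of features. The median log2 ratio of the 10 genes was 0.21, against 0.014 over all features, and the median size of their ratios, regardless of sign, was 0.22, against 0.083. Their median SD was 0.39, against 0.078 over all features, so these genes also spread more between the replicates. The 10 genes were chosen with results of these data known, and no test of the group was made.

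**Figure D4:**
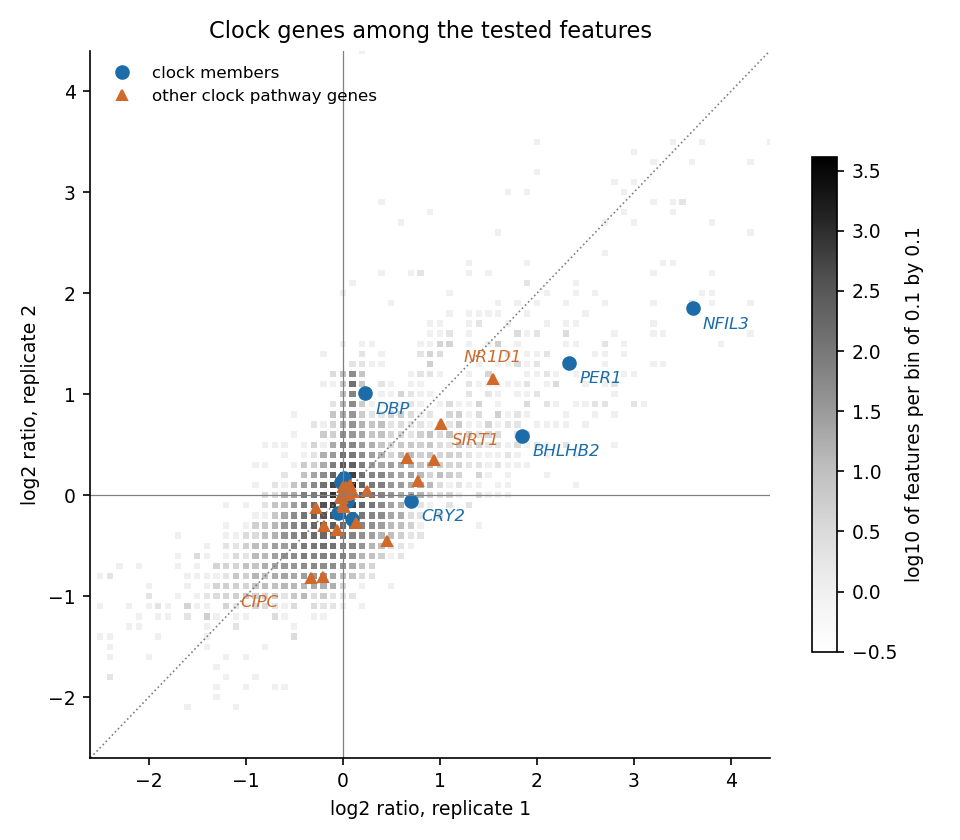
Log2 ratio in replicate 1 (x axis) and replicate 2 (y axis) of the 10 clock genes (blue circles) and of 23 other clock pathway genes (orange triangles), over the binned density of the 28600 tested features (grey). The dotted line marks equal ratios, and features beyond the axes are not drawn. NFIL3, PER1 and BHLHB2 lie below the dotted line, with the larger ratio in replicate 1, and DBP lies above it.

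The clock gene with the highest ratio and the one with the lowest were each compared with all named genes by Euclidean distance over the log2 ratios of the 4 arrays. The genes closest to NFIL3 were DUSP6 (distance 0.15), NR4A2 (0.30) and TNFAIP3 (0.30), with mean log2 ratios of 2.78, 2.83 and 2.85. Only DUSP6 lay within 0.25. For CLOCK the closest were DBR1, MAN2B2 and LOC343295, but 2175 genes lay within 0.25, so these names carry no distinction. The 4 arrays hold 2 replicates, and closeness over so few points is a description.

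Other genes of the clock pathway were counted from a list of 24, of which 23 were found by name and tested. Limma called 0 of them, against 0.0105% of all features. At an unadjusted p under 0.05 by limma there were 6, 4 higher (3.71% of all features) and 2 lower (10.8%). Of the 23, 12 were higher in both replicates, against 35.4% of all features, and 7 were lower in both, against 30.1%. Their median log2 ratio was 0.012, against 0.014 over all features. In the nuclear receptor loop, which controls transcription of ARNTL through opposing repressors (NR1D1 and NR1D2, the REV-ERBs) and activators (RORA and RORB among them), these 4 genes were higher in both replicates by their brightest probe. They stayed above 0 under every setting tried, and RORB had the smallest log2 ratio of the 4 at 0.087 ± 0.020.

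NR1D1 was the only one of the 23 at least 2-fold higher in both replicates, against 0.657% of all features. Its brighter probe measured 302 with vehicle and 885 with farnesol in replicate 1, and 302 and 670 in replicate 2. The replicates agreed in level better than those of NFIL3 or PER1, and the log2 ratio was 1.35 ± 0.28, or 2.55-fold (limma, adjusted p = 0.192; interval 0.92 to 1.78). Its dimmer probe gave 0.56 and 0.31, and the mean of both probes 0.89. RORA had 0.64 ± 0.42 and NR1D2 0.46 ± 0.45, both named after their values were seen. The dimmer NR1D2 probe split between the replicates, at 0.46 and -0.28, and the mean of both probes was 0.28. RORA had 1.23 with no offset and 1.42 with processed signals.

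Among partners of the clock proteins, SIRT1, a deacetylase that acts on ARNTL and PER2, had a log2 ratio of 0.86 ± 0.22, with 1.01 and 0.71 in the replicates (adjusted p = 0.198). CIPC, an inhibitor of CLOCK listed on the array as KIAA1737, had the lowest ratio of the list at -0.57 ± 0.35 (adjusted p = 0.313). SIRT1 was higher and CIPC lower on all 4 arrays. Of the kinases that phosphorylate PER proteins, CSNK1E had 0.51 ± 0.20 and GSK3B -0.20 ± 0.10. CSNK1E was 0.28 under median centring and 0.20 with the mean of its 3 probes.

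The F-box subunits, which mark CRY and PER proteins for degradation, ran from -0.25 ± 0.073 for FBXW11 to -0.020 for FBXL21. FBXL21 was 0.020 under median centring and 0.047 on the Cy5 arrays, and FBXW11 was -0.45 under median centring and -0.12 with the mean of its probes. The activators' paralogues had -0.21 ± 0.20 for ARNTL2 and -0.044 ± 0.068 for NPAS2. ARNTL2 was -0.38 with no offset, -0.40 with processed signals and -0.12 with the mean of its probes, and NPAS2 was -0.13 under median centring. Of the outputs, CCRN4L, which encodes nocturnin, had 0.15 ± 0.15 and USP2 0.057 ± 0.028. The CCRN4L probes disagreed, from 0.093 to 0.995 in mean log2 ratio, and its ratio was -0.076 under median centring. TEF, a D-box activator like DBP, had 0.067 ± 0.056, and BHLHB3, the paralogue of BHLHB2, had -0.014, with 0.017 under median centring. HLF was not well above background with vehicle on any array, so no fold is given. None of these genes was at least 2-fold different in a replicate by the probe that stood for it.

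In the authors' deposited table of farnesol over vehicle, whose header names replicate 1, 5 of the 18 probes were listed. On the log2 scale the authors' deposited table gave a ratio of 3.87 for NFIL3, 2.68 for PER1, 2.03 for BHLHB2, 0.98 for CRY2 and 0.53 for the dimmer CRY1 probe. The authors' deposited table, of 7018 rows, was compared with the scanner software's log ratios and not with the offset ratios used above. It follows the arrays of replicate 1 (r = 0.9999 across its probes, on the log2 scale) more closely than those of replicate 2 (r = 0.832). Its CRY2 and CRY1 entries therefore carry ratios that replicate 2 did not share.

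**Figure D5:**
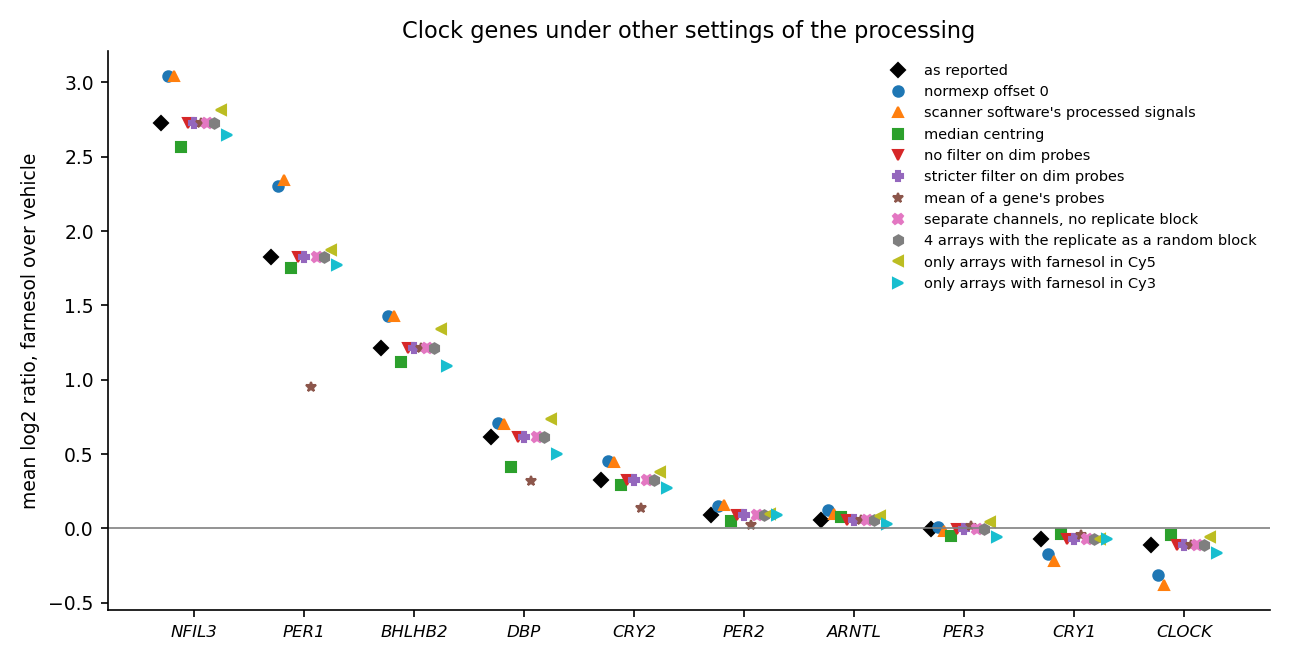
Mean log2 ratio of farnesol over vehicle (y axis) of each clock gene as reported (black diamonds) and under 10 other settings of the processing. NFIL3 stays between 2.57 and 3.04 and BHLHB2 between 1.09 and 1.43, while PER1 runs from 0.95 with the mean of its probes to 2.35 with processed signals.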

How the data were processed

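RNA of farnesol-treated and vehicle-treated H460 cells was measured on 4 Agilent 2-colour arrays (2 replicates, dyes exchanged). Total RNA was amplified before labelling, per the labels' protocols. Each array was on a slide of its own and all were scanned on the same day, per the file headers. Scans were read with Agilent Feature Extraction (8.1.1.1 per the file headers). Deposited intensity columns give mean spot and median local background brightness, uncorrected, per the file headers. The deposited processed intensities were detrended and dye-normalized, per the file headers. The deposited log10 ratios of Cy5 over Cy3 come from those. Other deposited columns are flags of the scanner software. The authors also deposited a linear ratio with a p-value per probe, in 2 identical copies, with no program named, and 4 intensity columns in those copies were not used.

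From the scanner intensities, R 4.3.3 and limma 3.58.1 (with the data.table package, 1.17.8) were used. Background was corrected by normexp with offset 50, which shrinks ratios of dim probes, and arrays were normalized by loess, with control and outlying spots at weight 0 and then left out. Ratios were turned to farnesol over vehicle, spots of a probe averaged, and the arrays of a replicate averaged, so n = 2. Levels come from quantile normalization of the mean intensities between arrays (Aquantile). Probes entered the test if, in farnesol or in vehicle, the well-above-background flag was set on at least 1 array per replicate, and the brightest probe stood for a gene, giving 28600 features, 17874 of them with a symbol. Limma's moderated test of the mean against 0 was two-sided, with Benjamini-Hochberg adjustment, 1 residual degree of freedom and 1.81 from moderation. The pipeline was tested on simulated data. The clock genes, the pathway list, the rule for named genes (all 10 clock genes, pathway genes of at least 2-fold, the highest and lowest of each role) and the tests were chosen with earlier results of these data known. TIPIN was not found by that name, and 1 gene of the pathway list enters the counts but is not reported here by name. The names DEC1 and STRA13 belong to other genes on this array and were not counted. No human reference sequence or position was used here.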

Additional observations from a re-analysis of the deposited data

How the results depend on the processing

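NFIL3, PER1, BHLHB2, DBP and CRY2 stayed above 0 under all 10 other settings of the processing, as did PER2 and ARNTL, and CLOCK and CRY1 stayed below 0. PER3 changed sign to 0.0085 with offset 0, 0.018 with probes of a gene averaged and 0.045 with only the arrays that carry farnesol in Cy5. No clock gene passed limma's threshold under 9 of the settings. With all 4 arrays fitted and the replicate as a random block (correlation 0.549), which counts technical arrays, 3 passed: NFIL3 (2.73, adjusted p = 0.00986), PER1 (1.82, adjusted p = 0.00686) and BHLHB2 (1.22, adjusted p = 0.0492). That setting also called 6 clock pathway genes and 2894 features. The count of features past the threshold, 3 as reported, was 66 with offset 0, 62 with processed signals, 25 with median centring, 5 and 15 with farnesol only in Cy5 or Cy3, and 15 with separate channels and no replicate block, that is, without pairing each farnesol RNA with its vehicle. No clock gene passed in that unpaired fit. The count of features at least 2-fold different in both replicates, 256 (188 higher, 68 lower), was 403 with offset 0 and 446 with processed signals, and 155 higher and 136 lower with median centring. Clock genes at least 2-fold higher in both replicates numbered 1 with probes of a gene averaged, where PER1 dropped out. Pathway genes so counted numbered 2 with processed signals and 0 with median centring or the mean of probes. The authors' deposited table, which holds replicate 1, had log2 ratios of 2.68 for PER1 and 0.98 for CRY2. Leaving out a replicate gives values with no test: 1.86 to 3.60 for NFIL3, 1.31 to 2.33 for PER1, 0.59 to 1.84 for BHLHB2, 0.23 to 1.01 for DBP, and -0.053 to 0.70 for CRY2. The dim probes of CLOCK, CRY1 and the second PER1 probe limit what can be seen of these genes.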

Other observations

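The timeless-interacting protein, a partner of TIMELESS in the replication fork, is on the array as FLJ20516 and was found by its description after the names were seen. It had a log2 ratio of -0.37 ± 0.19 (limma, adjusted p = 0.306), with -0.23 and -0.50 in the replicates. TIMELESS itself, better known in human cells for its part at the replication fork than in the clock, had -0.50 ± 0.43 (adjusted p = 0.421), with -0.20 and -0.80 in the replicates and -0.31 with the mean of its probes. Both genes were lower in both replicates, as were 30.1% of all features.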
